A study of Mus musculus with 12 samples.

Results

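The 5 autosomal GATA transcription factor genes of the mouse, Gata2, Gata3, Gata4, Gata5 and Gata6, were described by the H3K27me3 sites that lie around them in fibroblasts. A site is a stretch of the genome that the authors called as enriched in H3K27me3 over all samples together. The members were selected on the measured values themselves, that is on whether sites of the list lay at their promoters, so 4 genes with a promoter site and 1 gene without are a description and carry no test. A site counted for a gene where it overlapped the gene body, extended by 60 kb on both sides, by at least 1 bp. This gave 57 sites of the 101389 in the list, for 5 of the 21755 protein-coding genes.

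GATA factors hold a pair of zinc fingers that bind short DNA words around the letters GATA, and each member directs the choice of a cell lineage. Gata2 maintains blood stem and progenitor cells, Gata3 directs T cell development, and Gata4, Gata5 and Gata6 act in heart and endoderm. H3K27me3, the trimethylation of histone H3 at lysine 27, is placed by Polycomb repressive complex PRC2. It is known for covering the genes of lineage factors in cells of another lineage, often over CpG-rich promoters.

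H3K27me3 was measured by ChIP-seq in iMEF cells, which are immortalized mouse embryo fibroblasts. The cells carried floxed Ash2l alleles and a Cre-ER transgene driven by the CAGG promoter, and all groups, untreated cells included, had lost the endogenous Ash2l gene product after deletion of exon 4. They lived on human ASH2L fused to FKBP12F36V, which was introduced by a lentivirus. ASH2L is a subunit of the COMPASS/KMT2 complexes, which methylate lysine 4 of histone H3, and dTAG directs the fusion protein to degradation. According to the study, the ChIP-seq cells were of the clone NG3, so that the libraries do not represent several independent lines. Of 8 H3K27me3 libraries, 2 were made from untreated cells, and dTAG was present for 16 h, 24 h or 48 h before the others were made, with 2 libraries per time. Input chromatin was sequenced from untreated cells and after 48 h of dTAG, in 2 libraries each.

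The list gives a position for each site and no value for any library. From this list the levels at the GATA genes in untreated and treated cells could therefore not be compared, no replicate error could be given, and the depth behind a site is unknown. The samples are labelled as the second H3K27me3 experiment of the study, and the separate sites of its first experiment were not used here. The study also describes a table of the sites that changed after treatment, which was not used here. Nor does the list tell whether a site was present in all cells or libraries or only in some. Of 10 fibroblast marker genes, 1 had a promoter site (Pdgfra, with a site of 810 bp), and the median share of their windows covered by sites was 0.18%. Of 16 markers of blood, heart muscle and epithelium, 11 had a promoter site, with a median of 16.2%. The list medians were unlike, at 19.9% for blood, 45.4% for heart muscle and 8.62% for epithelium. Neighbouring heart muscle markers among them share sites in their windows. These marker lists were also chosen with earlier results known, so nothing is read from their differences. Over all protein-coding genes 26.9% had a promoter site and the median was 4.34%.

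Sequences of the promoters of Gata2, Gata3 and Gata5 are shown because these promoters are rich in CpG dinucleotides and differ in whether a site covers them. RefSeq promoters, which run from 250 bases before to 50 bases after a start, were matched for 3 of the 5 genes. They are printed from 5′ to 3′ with each CpG in capitals.
Gata2 distal promoter, GRCm38.p6 chr6:88193641-88193940, plus strand: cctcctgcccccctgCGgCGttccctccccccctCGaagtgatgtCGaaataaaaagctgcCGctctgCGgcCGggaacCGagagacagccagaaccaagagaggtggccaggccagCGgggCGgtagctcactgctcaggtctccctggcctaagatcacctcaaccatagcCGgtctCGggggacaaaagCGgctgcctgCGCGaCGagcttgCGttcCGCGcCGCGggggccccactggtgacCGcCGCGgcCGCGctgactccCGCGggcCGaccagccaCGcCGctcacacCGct
Gata2 second promoter, GRCm38.p6 chr6:88198414-88198713, plus strand: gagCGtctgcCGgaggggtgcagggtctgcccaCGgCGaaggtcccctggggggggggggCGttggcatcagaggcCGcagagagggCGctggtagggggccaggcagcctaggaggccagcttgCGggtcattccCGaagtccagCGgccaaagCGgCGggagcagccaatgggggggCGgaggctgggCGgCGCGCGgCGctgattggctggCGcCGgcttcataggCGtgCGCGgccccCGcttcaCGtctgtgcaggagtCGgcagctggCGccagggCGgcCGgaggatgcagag
Gata3 promoter, GRCm38.p6 chr2:9878551-9878850, minus strand: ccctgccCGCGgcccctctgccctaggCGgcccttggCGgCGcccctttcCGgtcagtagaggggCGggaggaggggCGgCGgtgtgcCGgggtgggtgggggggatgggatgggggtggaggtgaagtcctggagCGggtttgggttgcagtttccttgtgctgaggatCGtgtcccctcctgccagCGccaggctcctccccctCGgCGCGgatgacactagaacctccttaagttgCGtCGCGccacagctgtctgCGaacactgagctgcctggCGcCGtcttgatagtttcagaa
Gata5 promoter, GRCm38.p6 chr2:180334630-180334929, minus strand: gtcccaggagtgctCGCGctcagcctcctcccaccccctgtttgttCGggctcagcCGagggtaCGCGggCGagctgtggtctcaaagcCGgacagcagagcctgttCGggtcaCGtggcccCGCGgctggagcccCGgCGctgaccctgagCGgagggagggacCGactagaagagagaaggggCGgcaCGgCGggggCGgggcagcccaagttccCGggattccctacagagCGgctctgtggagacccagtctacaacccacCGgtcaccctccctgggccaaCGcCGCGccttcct
The distal Gata2 promoter held 32 CpGs in its 300 bases and the Gata5 promoter 26, and sites covered both completely. The second Gata2 promoter held 29 CpGs and the Gata3 promoter 22, and no base of either was covered. The median over 32619 RefSeq promoters was 7 CpGs, so all 4 sequences lay above it. Of all RefSeq promoters, 76.7% held fewer CpGs than the Gata3 promoter and 83.0% fewer than that of Gata5. For the second and the distal Gata2 promoters these shares were 87.0% and 90.4%. The CpG counts of the covered and the uncovered sequences overlapped. A GATA word here is AGATAA or its variant AGATAG, or else TGATAA or its variant TGATAG, on either strand. The Gata3 promoter held 1 such word and the other 3 held none. Of all RefSeq promoters, 29.6% held at least 1.

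Gata2, Gata3, Gata4 and Gata5 had a site within 1 kb of an annotated transcript start, and Gata6 had none. Of all protein-coding genes, 26.9% (5848 genes, 95% Wilson interval from 26.3% to 27.5%) had such a site. The interval covers counting over genes only, and genes are not independent. A start was called CpG-rich if the sequence within 1 kb reached both 50% GC and 0.6 in the ratio of observed to expected CpGs, the CpG ratio. All 5 members had a CpG-rich start, and among the 7515 protein-coding genes with one, 25.6% had a promoter site. Since the presence of sites chose the members, nothing is read from 4 of 5 against these shares. Members and windows were chosen with earlier results of these data known. The number, width and extent of the sites are therefore not free of this choice. In these the 4 genes differed widely from each other, although with no replicate these differences have no test.

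**Figure D1:**
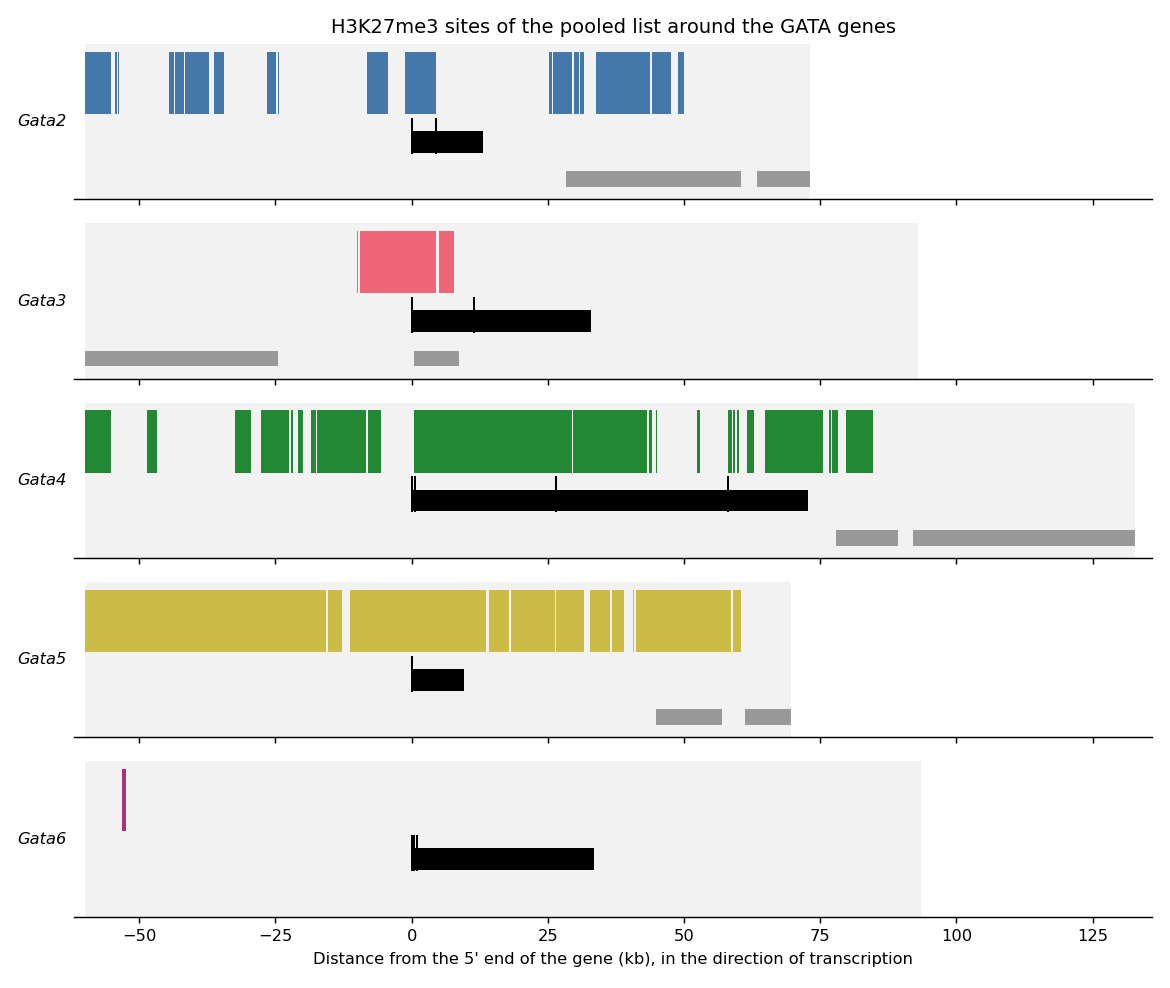
Sites (coloured blocks) around each GATA gene, by distance in kb from the 5' end of the gene in the direction of transcription. Black bars are gene bodies with ticks at protein-coding starts, grey bars are neighbouring protein-coding genes, and the light background marks the gene body and 60 kb on both sides. Gata5 lies within nearly unbroken sites (88.0% of the window), and Gata6 has 1 site, which is 52410 bp upstream.

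The map of sites around the 5 genes shows that the site numbers did not follow the covered length. Gata4 had 22 sites and Gata2 had 20, whereas Gata5 had 11, Gata3 had 3 and Gata6 had 1. Sites covered 114.0 kb around Gata5, 91.5 kb around Gata4, 45.1 kb around Gata2, 17.1 kb around Gata3 and 0.805 kb around Gata6. Gata5 thus had fewer but longer sites than Gata2 or Gata4. At least 1 site was present in the windows of 77.5% of protein-coding genes, so Gata6 was among these with its single site. The median number of sites in a window was 5 over all protein-coding genes and 14 over those with a promoter site.

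As a share of the window, which takes the length of the gene into account, sites covered 88.0% at Gata5, 47.4% at Gata4, 33.9% at Gata2, 11.2% at Gata3 and 0.524% at Gata6. The median was 4.34% over all protein-coding genes, with quartiles of 0.232% and 16.7%. Over the 5848 genes with a promoter site the median was 18.5%, with quartiles of 6.79% and 37.6%. Gata5 and Gata4 thus lay above the upper quartile of genes with a promoter site, Gata2 and Gata3 lay between the quartiles, and Gata6 lay between the quartiles of all genes. Ranked among all protein-coding genes, the covered share of Gata5 was at percentile 99.8, that of Gata4 at 95.0, that of Gata2 at 89.7, that of Gata3 at 66.2 and that of Gata6 at 28.8. The share of Gata3 depended on the flank, being 23.4% with 20 kb and 7.32% with 100 kb on both sides, so its place holds for 60 kb only. That of Gata6 was 0 with 20 kb and 0.468% with 100 kb.

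**Figure D2:**
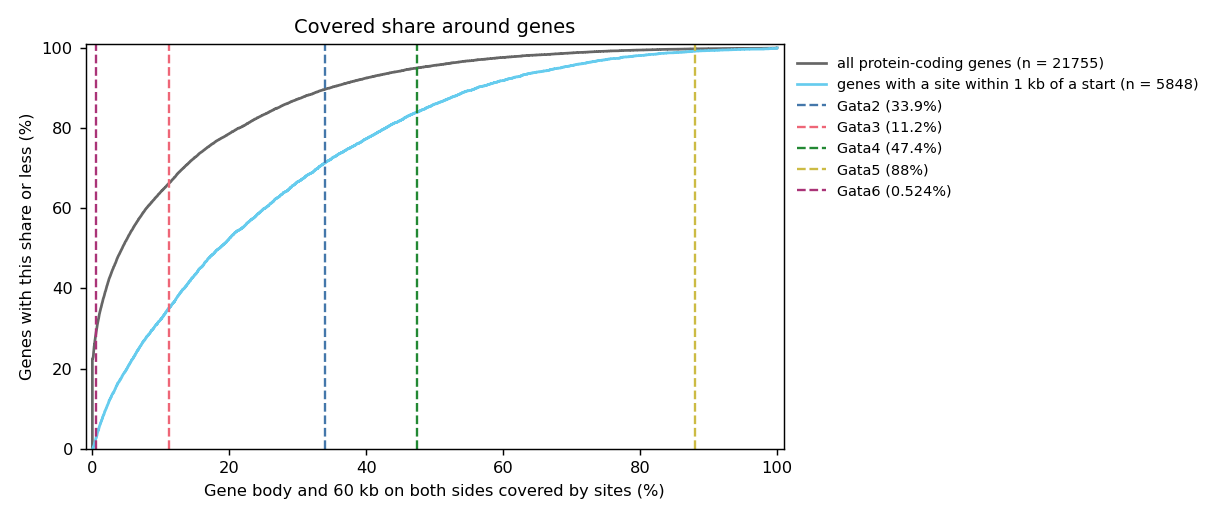
Cumulative share of genes (%) by the share of the gene body and 60 kb on both sides that sites cover (%), for all 21755 protein-coding genes and for the 5848 with a promoter site. Dashed lines mark the 5 GATA genes, from Gata6 at 0.524% to Gata5 at 88.0%.

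The sites around the members had a median width of 1823 bp (57 sites, quartiles of 568 and 4987 bp), and that of the whole list was 676 bp. Of the 5 windows, 4 belong to genes chosen for a promoter site, and the part of this choice in the difference was not tested. Sites of at least 10 kb were 7 of 57 (12.3%) around the members and 2.35% of the whole list. Sites under 500 bp were 14 of 57 (24.6%) around the members and 38.5% of the list. The 7 wide sites lay at Gata5 and Gata4, with 3 each, and at Gata3, with 1. Gata2 had none, its widest site being 9495 bp.

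The covered share was also split into the gene body and its flanks. At Gata5 sites covered 97.1% of the 60 kb upstream, 100.0% of the gene body and 76.9% of the 60 kb downstream. Gata4 was covered most in the gene body (74.2%), less upstream (47.0%) and least downstream (15.4%). Gata2 was covered almost evenly, with 34.7% upstream, 33.6% of the body and 33.2% downstream. At Gata3 sites covered 16.2% upstream and 22.3% of the body, and none lay downstream. At Gata6 only 1.34% of the upstream flank was covered. Of genes with a promoter site, 10.4% had the whole body covered as Gata5 did, and of all protein-coding genes, 69.4% had no covered base in the body, as Gata6.

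**Figure D3:**
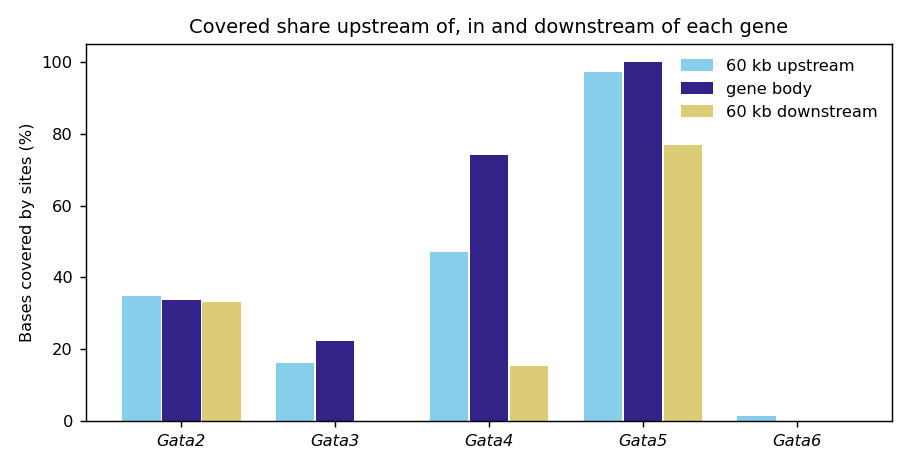
Share of bases covered by sites (%) in the 60 kb upstream, the gene body and the 60 kb downstream of each GATA gene. Bars are single values of the pooled list without error. Gata2 is even over the 3 parts (33.2% to 34.7%), Gata4 is highest in the gene body, and Gata3 and Gata6 have no covered base downstream.

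Coverage of the coding sequence was read for the members only, and its share over all genes was not computed. For whole gene bodies, 10.4% of genes with a promoter site were covered completely. Of all protein-coding genes, 69.4% had no covered base in the body, so neither outcome is particular to the members. Sites covered 100.0% of the coding bases of Gata4 (1326 bp) and of Gata5 (1212 bp). No coding base of Gata2 (1440 bp), Gata3 (1329 bp) or Gata6 (1767 bp) was covered. In Gata2 the covered part of the gene was intron, of which 55.6% was covered, whereas 2.04% of the exon bases were. In Gata3 23.9% of the intron and 10.4% of the exon bases were covered, and in Gata4 73.0% of the intron and 96.5% of the exon bases. Hence, among the 4 genes with a promoter site, the sites extended over the coding exons in Gata4 and Gata5 and did not reach them in Gata2 and Gata3.

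Gata2 (GRCm38 chr6:88193891-88207032, plus strand) had a single site in its body. This site of 5611 bp (chr6:88192694-88198304) ran from position -1197 relative to the distal start at 88193891 and ended 30 bp before the second protein-coding start at 88198334. Of the bases within 1 kb, 100.0% were covered at the distal start and 48.5% at the second start, although the CpG ratios of 0.681 and 0.645 were similar. The second RefSeq promoter shown above belongs to a transcript start further downstream, at 88198664, and that start was 360 bp from the site. Starts of 2 retained-intron transcripts, farther into the gene, had no site within 1 kb. Among the widest promoter sites of all genes with one (median 3978 bp), that of Gata2 was at percentile 62.2.

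The remaining 19 sites around Gata2 lay apart from the gene. Of them, 10 lay upstream, between positions -59885 and -4377 relative to the distal start, and 9 lay downstream, before and within the neighbour Dnajb8, which encodes a heat shock protein of the DNAJ family, and its antisense gene 1700031F10Rik. Both starts of Dnajb8 and both of 1700031F10Rik had a site within 1 kb. The 9 downstream sites lay less than 3 kb from each other and formed a domain of 24843 bp when joined. Beyond them no site was found for 203500 bp, a stretch that holds the whole body of Eefsec, a translation factor for selenoproteins. A site of 388 bp beyond it lay within 1 kb of 5 of the 6 starts of Eefsec.

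Of 4 enhancers that RefSeq annotates around Gata2, 1 overlapped a site. Among 1015 RefSeq enhancers 25.9% did, so the share at Gata2 was near the background. The overlapping element was Gata2R6 (chr6:88218972-88219506), downstream of the gene, with 390 of its 535 bases covered. Gata2R8 (chr6:88189623-88190022), upstream in the interval between 2 sites, and Gata2R5 (chr6:88202909-88203453), within the gene, had no covered base.

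Gata3 (chr2:9857078-9890034, minus strand) had its promoter sites at upstream starts only. A site of 14036 bp (chr2:9885513-9899548) covered the sequence within 1 kb of the 3 most upstream starts, at 9890034, 9890002 and 9887784, completely. These starts had CpG ratios of 0.454, 0.449 and 0.204. The main start at 9878600, the only one among curated RefSeq mRNAs, had a ratio of 0.686, no covered base within 1 kb, and the nearest site 3573 bp away. The remaining starts, at 9875399 and 9873672, had ratios of 0.45 and 0.3, no covered base within 1 kb, and the nearest sites 6774 and 8501 bp away. Thus the start with the highest CpG ratio was free of sites, and of the 5 starts with lower ratios, the 3 most upstream were covered.

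The second site of Gata3, of 2822 bp (chr2:9882173-9884994), lay between these starts and had itself a CpG ratio of 0.623. The third had a width of 200 bp, the smallest of the list, and lay upstream. A pair of short genes overlaps this region. 4930412O13Rik had the site of 2822 bp at 2 of 2 starts, and 9230102O04Rik had sites at 2 of 2 starts, among them the site of 14036 bp that lies at the upstream starts of Gata3. Upstream of Gata3, Taf3, a subunit of the general transcription factor TFIID, had no site at any of 5 starts, the nearest being 18324 bp away. In the direction of transcription no site followed for 1208506 bp (chr2:8673667-9882172). This stretch holds the main start and the coding sequence, and it was the longest without sites at any of the 5 genes.

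Gata4 (chr14:63198922-63271692, minus strand) had a site within 1 kb of 5 of 5 starts. A site of 28921 bp (chr14:63242286-63271206), at rank 248 of the list by width, covered the starts at 63245248 and 63245271 completely within 1 kb, and it also covered the upstream start at 63271124 and ended 486 bp short of the one at 63271692. At the upstream starts 54.1% and 25.7% of the bases within 1 kb were covered. The fifth start, at 63213607, lay 28 bp from a site of 620 bp. The CpG ratio was 0.598 and 0.607 at the completely covered starts and 0.199 to 0.218 at the others, so in Gata4, unlike Gata3, the starts with the highest ratios were those covered most.

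Next to the widest site of Gata4 lay one of 13450 bp, still in the gene, and one of 10766 bp overlapped its 3' end. Joined across gaps under 3 kb, 4 sites formed a domain of 44631 bp, and 836 of 32496 joined domains of the genome were at least as wide. Downstream, Neil2, which encodes a DNA glycosylase, had sites at 3 of 3 starts. The next genes, Fdft1 (squalene synthase) and Ctsb (cathepsin B), had none at 4 and 3 starts. On the upstream side the lincRNA genes Gm49390 and Gm5463 each had a site at their single start.

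Gata5 (chr2:180325133-180334699, minus strand) lay entirely in a site of 24980 bp (chr2:180321097-180346076), which began at position -11377 relative to its single start. The CpG ratio at this start was 0.718, the highest at any covered start of a member. Further upstream followed a site of 57606 bp (chr2:180350362-180407967), at rank 33 of 101389 by width, of which the last part lay outside the 60 kb window. It covered the lincRNA gene B230312C02Rik and Mir1a-1, a microRNA gene of heart and skeletal muscle, completely. Joined across gaps under 3 kb, 13 sites formed a domain of 152629 bp, and 53 of 32496 domains were at least as wide.

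Other genes in the Gata5 domain were covered as well. The body of Gata5os, transcribed from the opposite strand, and that of Rbbp8nl were covered to 100.0%. Cables2, a cyclin-dependent kinase regulator next to the domain, had a site 774 bp from a start and no covered base in its body. Below this site no other was found for 163296 bp. The domain thus ended between Rbbp8nl and Cables2.

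Gata6 (chr18:11052064-11085635, plus strand) had 6 annotated starts, none with a site within 1 kb. The nearest site, of 805 bp (chr18:10998850-10999654), lay 52410 bp upstream of its first start, within the noncoding gene 1010001N08Rik. Of all protein-coding genes, 26.9% had their nearest site at least as far from every start, with a median distance of 13192 bp, so a gene as far from sites as Gata6 was common. No other site was found for 227752 bp downstream of this one. Of the 101285 gaps between neighbouring sites, 2.07% were at least as long. The 60 kb limit left out no site close to Gata6, the next ones being 90800 bp below and 141772 bp above the gene. At other members the nearest excluded sites were 61065 bp from Gata2 and 62531 bp from Gata4, and at Gata5, 74159 bp away.

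The starts of Gata6 were not poor in CpG. The ratio was 0.618 at the first start and 0.583 to 0.589 at the next 3, and 0.758 at the retained-intron start at 11055038, the highest among the starts of all 5 genes. The last start, at 11059047, had a ratio of 0.495. The GC content was 54.8% to 64.2% at the 5 starts with the higher ratios, and it was 58.4% to 61.4% at the CpG-rich starts of Gata2, Gata4 and Gata5. A CpG-rich start without a site was thus seen at Gata6 and at the main start of Gata3. Among the 7515 protein-coding genes with a CpG-rich start, 25.6% had a promoter site. A gene with a CpG-rich start and no promoter site, such as Gata6, was therefore common.

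**Figure D4:**
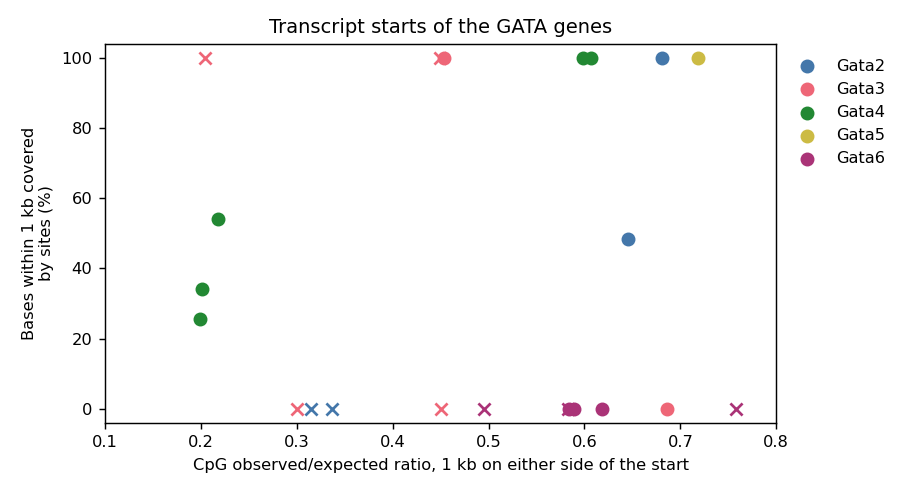
Share of bases within 1 kb of each annotated start covered by sites (%) against the CpG observed/expected ratio of the same sequence, by gene. Circles are starts of protein-coding transcripts and crosses are starts of other transcripts. CpG-rich starts (ratio of at least 0.6) were covered completely at Gata4, Gata5 and the distal start of Gata2, to 48.5% at the second start of Gata2, and not at all at Gata3 (0.686) and Gata6 (0.618 and 0.758).

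The plot of coverage against CpG ratio holds 22 starts, and neighbouring starts of a gene share sequence and sites. Starts with a site within 1 kb were 2 of 4 in Gata2, 3 of 6 in Gata3, 5 of 5 in Gata4, 1 of 1 in Gata5 and 0 of 6 in Gata6. When every protein-coding start of a gene had to have a site, Gata2, Gata4 and Gata5 remained and Gata3 did not, and 19.6% of protein-coding genes met this condition. The 4 genes with a promoter site therefore differed in which of their starts carried it.

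The sequence composition of covered and uncovered bases was compared within each window. At Gata6 the covered bases were those of 1 site of 805 bp, so its values describe that site only. Covered bases had the higher GC content in all 5 windows, by the least at Gata5 (51.6% and 51.2%) and by the most at Gata3 (49.3% and 45.1%). The CpG ratio was higher in covered bases at Gata2, Gata3 and Gata4, and lower at Gata5 (0.178 and 0.269) and Gata6 (0.139 and 0.198). Annotated repeats made up a smaller share of covered than of uncovered bases at each gene, for example 17.1% and 22.2% at Gata2. The uncovered bases of Gata6 had the highest repeat share, 31.3% of 152767 bp. Reads from repeats can be lost in alignment, and their part in the absence of sites at Gata6 was not tested. Of the 75-base words taken at intervals of 1 kb, 1 of 154 in the Gata6 window recurred in sequences outside the assembled chromosomes, and none did in the other 4 windows.

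Other genes of the GATA pathway were read from lists that were chosen with results of this list of sites known. Of 34 such genes, 23 (67.6%) had a promoter site, and the median share of their windows covered was 23.6%. Over all protein-coding genes 26.9% had a promoter site and the median was 4.34%, and these values also stand beside the counts of the single lists. Since the lists were chosen with results known, nothing is read from the differences. Among the remaining genes with GATA-type zinc fingers, 1 of 5 had a promoter site. This was Gata1, the X-linked factor of red blood cells, with 3 of 3 starts and 15.8% of its window covered. Trps1, a repressor of GATA targets, had its nearest site 1053048 bp away, and Gatad1, Gatad2a and Gatad2b, which are subunits or partners of chromatin complexes, had no promoter site and at most 3.68% of the window covered.

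Cofactors that bind GATA factors had a promoter site in 4 of 8 genes. Lmo2 and Tal1, which join GATA factors in a complex of blood progenitors, had 67.1% and 49.5% of their windows covered and a site at every start. Cbfa2t3, a corepressor of that complex, had 65.7% covered and a site of 96666 bp. The fourth, Zfpm1, the FOG protein of blood cells, had a site of 1280 bp at 1 of 5 starts and 0.731% covered. Zfpm2, the FOG protein of the heart, had none, with the nearest site 489213 bp away, and neither had Ldb1, Lyl1 or Runx1.

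Partners in the lineages were counted in the same way. Of heart factors, 6 of 8 had a promoter site, with a median of 33.0% of the window covered. Nkx2-5 and Hand2, transcription factors of heart formation, were covered to 46.7% and 44.8%, and Hand1, which also acts in heart formation, was covered to 14.5% with a site of 1065 bp at 1 of 2 starts. Srf and Mef2c had no promoter site and were covered to 5.92% and 6.23%. Of endoderm factors, 6 of 7 had a promoter site, with a median of 51.2%. Foxa2, a pioneer factor of endoderm, was covered to 75.2%. Of T cell genes, 6 of 6 had a promoter site, with a median of 30.1% and the lowest value, 11.9%, at Il4. Cdx2 and Pdx1 are neighbours, so their windows share sites.

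**Figure D5:**
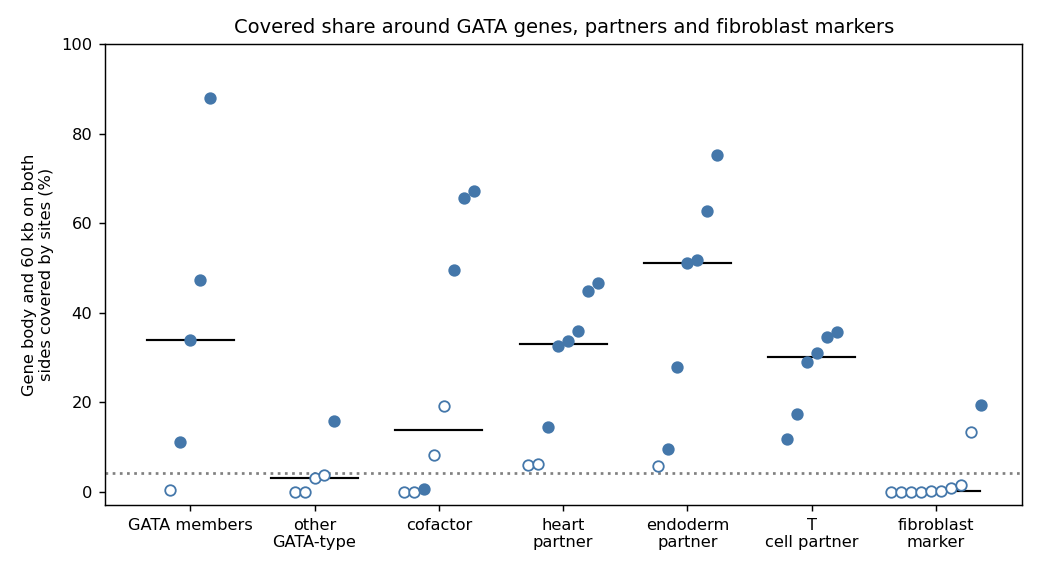
Share of the gene body and 60 kb on both sides covered by sites (%) for the 5 GATA genes, the lists of partner genes and 10 fibroblast markers. Each point is a gene, filled if a site lies within 1 kb of a start, lines are list medians, and the dotted line is the median of all protein-coding genes (4.34%). Gata5, at 88.0%, lies above every partner gene, of which Foxa2 is the highest with 75.2%.

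Set beside these lists, the median of the 5 members was 33.9%, which is the value of Gata2. Gata5 had a larger value than any of the 34 partner genes. Nothing is read from this, since the lists were chosen with results known. Gata3 and Gata6 are not placed among these lists because their shares depended on the flank. The order rests on single values of a pooled list and was not tested.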

How the data were processed

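H3K27me3 ChIP-seq was performed by the authors on iMEF cells, with input controls. According to the study's methods, reads were trimmed with Trim Galore, aligned with BWA to mm10 (GRCm38.p6), filtered with SAMtools and merged with Picard, and broad peaks were called with MACS. The submitters' processing notes also name deepTools and DESeq2. Versions, cutoffs and the rule for joining peaks were not given in the sources used here. The deposited list holds chromosome, start and end of 101389 sites pooled over all samples, and 0 columns of per-sample values were left unused.

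Starts were read as counted from 0 and are printed counted from 1. Sites were intersected with GENCODE M21 genes in Python 3.11.15 with pandas 2.3.3, numpy 2.4.6 and pysam 0.24.0, and the code was tested on simulated intervals. Counts over genes were compared with all protein-coding genes on chromosomes 1 to 19 and X. The 84 sites on scaffolds were left out there. Enhancers and promoter sequences are those of RefSeq. The members, lists and windows were chosen with earlier results of these data known. Named genes are the 5 members, the genes next to them or sharing their sites, and the lists of partners and markers, some of which are counted but not reported here by name. No model was fitted, since the list has no values per library. Alternatives varied the promoter window, flank, minimum width, merging, starts and overlap rule.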

Additional observations from a re-analysis of the deposited data

How the results depend on the processing

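The list holds no depth and no replicates, so precision cannot be stated, and all differences between genes are descriptions. No paired analysis was possible because the list pools all samples and no test was made. The 4 members with a promoter site remained 4 with promoter windows of 500 bp and 3 kb, with sites of at least 500 or 1000 bp and with protein-coding starts. They became 3 with curated RefSeq starts or with every protein-coding start required (both chosen after seeing the data, Gata3 being lost), and 1, Gata4 through its site of 620 bp, when the centre of the site had to lie in the window. Partner genes were 22 to 25 otherwise and 10 by the centre. The share of all protein-coding genes was 24.7% at 500 bp, 33.5% at 3 kb, 24.9% and 22.4% with sites of at least 500 and 1000 bp, 25.9% with protein-coding starts, 24.9% with RefSeq starts and 18.5% by the centre. The 57 sites became 33 with 20 kb flanks, 35 with sites of at least 1000 bp, and 25 and 15 when sites less than 1000 and 3000 bp apart were merged. The median covered share lay between 27.9% and 39.7%. With sites of at least 1000 bp the nearest site to Gata6 was 168360 bp away. Of the values for single genes, 45 stayed within 1.5 times and 20 did not.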
